A study of Mus musculus with 10 samples.

Results

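The genes described here encode subunits of ATP synthase (complex V) and of cytochrome c oxidase (complex IV), measured by bulk RNA-seq in CD3+ T cells of the spleen. They were chosen by name: protein-coding genes whose symbol starts with Atp5, or with Cox followed by 4, 5, 6, 7 or 8. This gave 32 of the 20617 genes in the table, 17 of complex V and 15 of complex IV, and the mean of all 32 reached 1 normalized count, the minimum for testing. Names and values are out of step in the table, so that values were read 3 rows above the name for Atp5 genes and 5 rows above it for Cox genes. Of the remaining tissue isoforms of complex IV, Cox7b2, Cox8b and Cox8c had no protein-coding row under these names. The 13 protein-coding genes of mitochondrial DNA, sought by name, had no row of values either.

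ATP synthase lets protons flow back across the inner mitochondrial membrane and uses this flow to make ATP. Its catalytic head, F1, stands on a central stalk above a ring of c subunits in the membrane, and a peripheral stalk holds the head still. Cytochrome c oxidase is the last step of the respiratory chain: it passes electrons from cytochrome c to oxygen and pumps protons as it does so. Its catalytic core is encoded by mitochondrial DNA, while the nuclear genes described here encode the subunits around that core, some of them in forms made mainly in muscle, lung or testis. In T cells, oxidative phosphorylation is the main source of ATP in resting and memory cells, and activation adds glycolysis to it.

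All mice were Nf1OPG mice (Nf1 flox/mut; GFAP-Cre) on a C57BL/6 background. The GFAP-Cre transgene inactivates Nf1 in neuroglial progenitors, so that by this design the T cells of both groups are Nf1 heterozygous. The OVA group (n = 5, replicates 6 to 10) was sensitized with chicken-egg ovalbumin in aluminum hydroxide and then received ovalbumin intranasally, all within weeks 4 to 6 of life, and the PBS group (n = 5, replicates 1 to 5) received saline. The age at which these T cells were taken, and whether mice were pooled, are not given in the sources used here. If replicates were not separate mice, the p-values measure only the spread between these samples.

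Between 6835696 and 29915782 reads were recovered per library, the fewest in PBS replicate 3. The 12 T cell marker genes summed to between 91952 and 177580 normalized counts in PBS libraries and to between 110900 and 154010 in OVA libraries, with a median log2 fold change of -0.01. Cd4 had the highest log2 fold change in that list (0.10, SE 0.20) and Lat, an adaptor of the T cell receptor, had the lowest (-0.23, SE 0.23). Markers of other cells were also present. Erythroid markers had a log2 fold change below 0 in 8 of 8 genes (median -1.41), and summed to 3126 to 16431 in PBS libraries and 508.2 to 10098 in OVA libraries. B cell markers were above 0 in 6 of 6 genes (median 0.85) and summed to 702 to 2487 against 748 to 6640. Macrophage and neutrophil markers summed to 7577 to 24513 against 9955 to 59705, the highest in OVA replicate 6, with a median of 0.43 over 8 genes. In these 4 lists 0 genes passed a limma adjusted p of 0.05, and 3 had an unadjusted p under 0.05, among them the erythroid membrane gene Slc4a1 at -3.16 (SE 1.28). Csf1r, a macrophage receptor whose name was placed with a probability under 0.9 and which was therefore not counted, was higher in OVA mice at an unadjusted p under 0.05 (0.95, SE 0.35), and is named after its values were seen. Blnk, a B cell adaptor, was the lowest of its list at 0.20 and Hbb-bt, a beta globin, the highest of the erythroid list at -0.87. The macrophage and neutrophil list ran from C1qa, a complement gene, at -0.11 to S100a8, a neutrophil protein, at 1.36. A lower amount of RNA per cell and a lower share of a cell type cannot be told apart in bulk samples.

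No subunit gene of either complex passed the threshold between OVA and PBS mice. With limma on log2(normalized count + 1), 0 of 17 complex V genes and 0 of 15 complex IV genes had an adjusted p under 0.05, where 1 of 20249 genes tested did (0.00494%). At an unadjusted p under 0.05 there were 3 complex V genes, all lower in OVA mice, and 0 complex IV genes. Of all genes tested, 9.77% reached this p and 2.65% did so as lower in OVA mice. Among genes with a mean of 1000 or more normalized counts, 5.78% were lower at this p. With edgeR 0 of 32 genes had an adjusted p under 0.05 and 3 an unadjusted p under 0.05. With DESeq2 these numbers were 0 and 4. The background was 0.00988% of genes called by edgeR and 0.825% by DESeq2, and 3.06% and 3.45% were lower at the unadjusted p. The number at the unadjusted p depended on the scaling. With all libraries scaled to 1 total, 0 of 17 complex V and 0 of 15 complex IV genes had an unadjusted limma p under 0.05. After quantile normalization 1 complex V gene and 0 complex IV genes did.

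Most estimates lay below zero. All 17 complex V genes and 12 of 15 complex IV genes had a lower fitted level in OVA than in PBS mice, with median log2 fold changes of -0.21 and -0.15. In all genes tested, 45.5% lay below zero and the median was 0.04. The subunit genes are abundant, and abundant genes as a class lay lower: of the 2803 genes with a mean of 1000 or more, 69.5% were below zero, with a median of -0.10 and a 10th percentile of -0.28. All 25 subunit genes of this level were below zero. The scaling of the libraries bears on the sign. When all libraries were scaled to 1 total, the median of all genes moved to 0.15, and 14 of 17 complex V genes and 11 of 15 complex IV genes were below zero, with medians of -0.09 and -0.04. Relative to the median of all genes, the complex V median was -0.25 in the authors' scaling and -0.24 at the same total, and the complex IV median was -0.20 and -0.19. Scaling to 1 total shifts all genes of a library nearly alike, so that these offsets could hardly change. After quantile normalization these offsets were smaller, at -0.10 for complex V and -0.06 for complex IV.

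**Figure D1:**
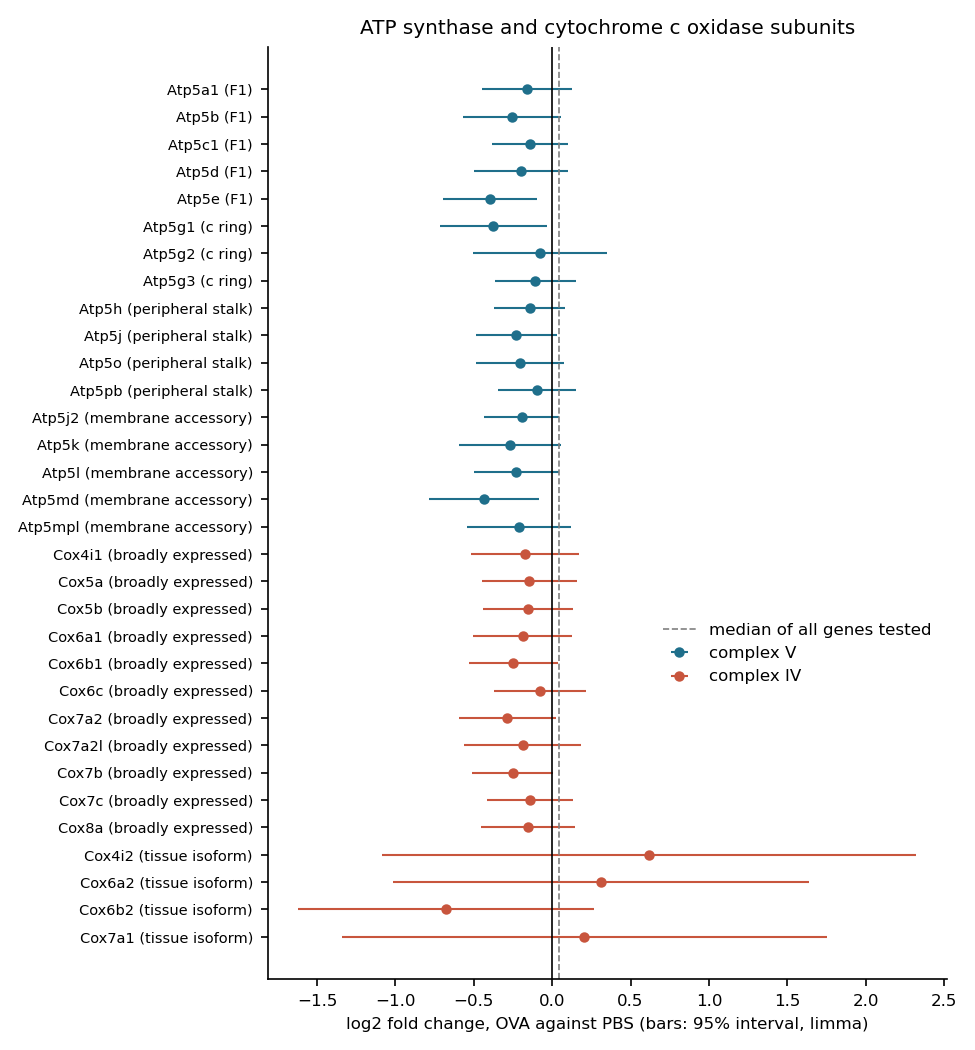
Log2 fold change of each gene in OVA against PBS mice (x axis) with its 95% interval from limma, by gene and role (y axis); the dashed line is the median of all genes tested (0.04). All 17 complex V genes (blue) and 12 of 15 complex IV genes (red) lie left of 0 in this scaling, 3 intervals exclude 0, and the 4 tissue isoforms have the widest intervals.

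The F1 head is built from subunits alpha (Atp5a1), beta (Atp5b), gamma (Atp5c1), delta (Atp5d) and epsilon (Atp5e). Atp5e, the smallest subunit of the central stalk, was the only subunit gene whose groups did not overlap in the authors' scaling. It held 5366, 4318, 6984, 5709 and 4549 normalized counts in PBS replicates 1 to 5, and 4026, 4141, 4272, 3465 and 4294 in OVA replicates 6 to 10. The highest OVA library was thus just under the lowest PBS library. As shares of all reads the groups overlapped: Atp5e had 5457 of 21699538 reads in OVA replicate 10 and 5017 of 21459181 in PBS replicate 2. The OVA mean was 75.0% of the PBS mean, and the log2 fold change was -0.40 (SE 0.14, 95% interval -0.70 to -0.10, limma adjusted p = 0.346). In the authors' scaling, the exact two-sided permutation test gave p = 0.00794, the smallest that 5 against 5 libraries allow. In that scaling 0.356% of all genes tested had every PBS library above every OVA library. Atp5e lies on the minus strand of chromosome 2 of GRCm38, from 174461072 to 174464105.

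The catalytic subunits showed smaller differences. Atp5b, which carries the catalytic sites, held 10010 ± 1550 normalized counts (SD, n = 5) in PBS and 8409 ± 1388 (SD, n = 5) in OVA mice. The difference on the log2 scale was -0.25, with a 95% interval of -0.57 to 0.06 (limma adjusted p = 0.589). Atp5a1, the partner of Atp5b in the head, held 14035 ± 1416 (SD, n = 5) and 12612 ± 1977 (SD, n = 5). It was highest in an OVA library, replicate 10, with 15843, so that its groups overlapped fully. Atp5c1, the rotating shaft, had a log2 fold change of -0.14 (95% interval -0.39 to 0.10), and Atp5d had one of -0.20 (95% interval -0.50 to 0.10).

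The peripheral stalk genes lay closer together. Atp5pb (subunit b) had a log2 fold change of -0.10 (SE 0.12), Atp5h (subunit d) of -0.14 (SE 0.11), Atp5o (the subunit OSCP, which ties the stalk to the head) of -0.21 (SE 0.13) and Atp5j (subunit F6) of -0.23 (SE 0.12). Their adjusted p lay between 0.567 and 0.816. OVA libraries differed little in these genes: the coefficient of variation was 3.57% to 6.15% in OVA and 7.58% to 17.4% in PBS libraries. For Atp5o the table gives a span from 91684398 to 91931687 on chromosome 16, which covers a pair of annotated genes of the same symbol.

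Small membrane subunits, which help ATP synthase form dimers, included the lowest estimate of complex V. Atp5md held 1264, 843, 1291, 994 and 749 normalized counts in PBS replicates 1 to 5, and 804, 624, 753, 800 and 743 in OVA replicates 6 to 10. PBS replicates 1 and 3 were high, while PBS replicate 5 lay among the OVA libraries. The log2 fold change was -0.44 (SE 0.16, 95% interval -0.79 to -0.09, limma adjusted p = 0.386), and the OVA mean was 72.4% of the PBS mean. The other 4 genes of this kind, Atp5j2, Atp5k, Atp5l and Atp5mpl, had log2 fold changes between -0.27 and -0.20, and their 95% intervals held zero. Atp5j2 had the lowest coefficient of variation of all 32 genes in OVA libraries (1.5%), with 3101 ± 46.6 normalized counts (SD, n = 5), and held 3570 ± 417 (SD, n = 5) in PBS libraries.

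The ring subunit c is made from a set of 3 genes, Atp5g1, Atp5g2 and Atp5g3, that encode the same mature protein behind different import signals. The last 225 coding bases before the stop codon, which hold the mature subunit, are shown because the shares of the ring genes rest on reads being told apart. Capitals mark bases that differ from Atp5g3, and the bases were read from GENCODE M21 transcripts on GRCm38. The exons span chromosome 2 from 73908596 to 73909296 for Atp5g3, chromosome 11 from 96073107 to 96073635 for Atp5g1 and chromosome 15 from 102663017 to 102665166 for Atp5g2, all on the minus strand.
Atp5g3: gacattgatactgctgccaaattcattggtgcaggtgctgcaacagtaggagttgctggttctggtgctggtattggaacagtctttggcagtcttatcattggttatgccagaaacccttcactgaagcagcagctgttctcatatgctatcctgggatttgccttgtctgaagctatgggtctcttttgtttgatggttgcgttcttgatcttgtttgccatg
Atp5g1: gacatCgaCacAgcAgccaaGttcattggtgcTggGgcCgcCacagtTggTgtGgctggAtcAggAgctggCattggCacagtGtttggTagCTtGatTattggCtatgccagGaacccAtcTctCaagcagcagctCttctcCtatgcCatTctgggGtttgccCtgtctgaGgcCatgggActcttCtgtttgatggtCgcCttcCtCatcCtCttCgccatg
Atp5g2: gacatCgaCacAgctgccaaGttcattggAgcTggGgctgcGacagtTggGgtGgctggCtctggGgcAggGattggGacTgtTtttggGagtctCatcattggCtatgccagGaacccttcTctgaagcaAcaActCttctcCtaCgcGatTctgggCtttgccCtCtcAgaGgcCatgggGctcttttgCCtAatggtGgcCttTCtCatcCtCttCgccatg
Atp5g1 differs from Atp5g3 at 45 of 225 bases and Atp5g2 at 48, with identical runs of at most 11 and 8 bases. Atp5g1 and Atp5g2 differ at 34 bases, with an identical run of at most 20. No other annotated gene matched Atp5g2 or Atp5g3 over 200 or more bases at 95% identity, while the processed pseudogene Gm10039 matched Atp5g1 over 411 bases at 99.8% identity.

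Atp5g1 held 1832, 1751, 1712, 1478 and 1184 normalized counts in PBS replicates 1 to 5, and 1195, 1152, 1033, 1104 and 1666 in OVA replicates 6 to 10. Of the OVA libraries 4 lay close to PBS replicate 5, the lowest of its group, and OVA replicate 10 lay among the higher PBS libraries. The log2 fold change was -0.38 (SE 0.16, 95% interval -0.72 to -0.04, limma adjusted p = 0.455). Atp5g3, the most abundant of the set, held 3213 ± 430 (SD, n = 5) in PBS and 2971 ± 244 (SD, n = 5) in OVA mice, and Atp5g2 held 208 ± 47.0 (SD, n = 5) and 193 ± 20.8 (SD, n = 5). Their log2 fold changes were -0.11 (SE 0.12) and -0.08 (SE 0.20).

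Shares within a library do not depend on its scaling. Of the normalized counts per kilobase of exon of the ring genes, Atp5g3 took 76.6% ± 2.75 (SD, n = 5) in PBS and 78.9% ± 1.37 (SD, n = 5) in OVA mice. Atp5g1 took 16.8% ± 1.68 (SD, n = 5) and 14.4% ± 1.68 (SD, n = 5), a difference of -2.42 percentage points (exact two-sided permutation test, p = 0.0794, adjusted p = 0.50 over 7 shares). Atp5g2 took 6.61% ± 1.86 (SD, n = 5) and 6.74% ± 1.06 (SD, n = 5). The share and the level per kilobase of Atp5g1 depend on its annotated exon length of 4912 bases.

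Cox4i1, the form of subunit 4 found in most tissues, was the most abundant of the 32 genes. It held 33252, 21730, 19577, 22435 and 19005 normalized counts in PBS replicates 1 to 5, and 20356, 22920, 20731, 17535 and 19687 in OVA replicates 6 to 10. PBS replicate 1 stood apart and the other 9 libraries overlapped. The log2 fold change was -0.17 (SE 0.16, 95% interval -0.52 to 0.17, limma adjusted p = 0.761), and -0.03 without PBS replicate 1. Cox7a2l was likewise highest in PBS replicate 1 (10950) and lay between 5456 and 8251 in the other 9 libraries.

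The other broadly expressed subunits of complex IV had log2 fold changes between -0.29 and -0.08. The lowest were Cox7a2, Cox7b and Cox6b1. Cox7a2, the form of subunit 7A found in most tissues, held 2017 ± 394 (SD, n = 5) normalized counts in PBS and 1639 ± 192 (SD, n = 5) in OVA mice (-0.29 on the log2 scale, SE 0.15, limma adjusted p = 0.539). Cox7b held 2922, 2542, 2728, 2361 and 2119 in PBS replicates 1 to 5, and 2101, 1867, 2182, 2319 and 2123 in OVA replicates 6 to 10. For Cox7b, 4 of 5 PBS libraries lay above every OVA library and the fifth lay among them (-0.25, SE 0.12, limma adjusted p = 0.517). Cox6b1, which faces the intermembrane space, had a log2 fold change of -0.25 (SE 0.13).

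Cox5a, Cox5b, Cox6a1, Cox6c, Cox7c and Cox8a lay between -0.19 and -0.08, with adjusted p of 0.700 to 0.886. Cox5a was high in PBS replicate 3 with 3622 normalized counts, against 2104 to 2494 in the other 9 libraries, and its log2 fold change was -0.15 with that library and -0.02 without it. Cox6c was the nearest to zero (-0.08, 95% interval -0.37 to 0.22). It had an estimate of 0.04 at the same total and of 0.01 after quantile normalization, so that its direction depended on the scaling. This was also so for Atp5g2, Atp5g3 and Atp5pb, at 0.03, 0.01 and 0.01 at the same total, and for Cox4i1 at 0.04 after quantile normalization.

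Of the tissue isoforms, Cox4i2 and Cox7a1 were at or near the floor of detection. A library's floor was set at 3 reads, which is 1.88 to 3.60 normalized counts except in PBS replicate 3 (8.31), and covers counting error only. Cox4i2, the form of subunit 4 made mainly in lung, had 4, 0, 1, 10 and 1 reads in PBS replicates 1 to 5, and 11, 4, 0, 6 and 15 in OVA replicates 6 to 10. Cox7a1, the heart and muscle form of subunit 7A, had 6, 5, 0, 3 and 2 reads against 12, 2, 0, 4 and 7. Of 10 libraries, 4 lay at or under the floor for Cox4i2 and 5 for Cox7a1. Cox6a2, the heart and muscle form of subunit 6A, lay above the floor everywhere, with 5.41 to 49.9 normalized counts in PBS and 6.64 to 51.2 in OVA libraries.

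Their intervals were wide: the log2 fold changes were 0.62 (95% interval -1.09 to 2.32) for Cox4i2, 0.31 (-1.01 to 1.64) for Cox6a2 and 0.21 (-1.34 to 1.75) for Cox7a1. These intervals hold a change of 2-fold in either direction. Cox6b2, the testis form of subunit 6B, was more abundant. It held 100, 244, 432, 112 and 135 normalized counts in PBS replicates 1 to 5, and 127, 76.4, 61.6, 88.9 and 283 in OVA replicates 6 to 10. PBS replicate 3 and OVA replicate 10 were the highest of their groups, which overlapped (-0.68, 95% interval -1.62 to 0.27, limma adjusted p = 0.633). Germ cell markers stayed low, with a sum over 2 genes of 4.30 to 13.8 in PBS and 8.53 to 17.5 in OVA libraries, and striated muscle markers summed to 224 to 279 and 192 to 264 over 5 genes. The germ cell genes were Ddx4 (-0.79) and Tnp2 (0.75), and the muscle genes ran from Tnnt3 (-0.30) to Ckm (0.93). The part of such cells in the isoform values was not tested.

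As shares per kilobase, the tissue forms were minor partners of the forms found in most tissues. Cox4i2 took 0.0307% ± 0.0371 (SD, n = 5) of subunit 4 in PBS and 0.0599% ± 0.0481 (SD, n = 5) in OVA mice. Cox7a1 took 0.274% ± 0.183 (SD, n = 5) and 0.436% ± 0.389 (SD, n = 5) of subunit 7A. Cox6a2 took 0.421% ± 0.241 (SD, n = 5) and 0.657% ± 0.405 (SD, n = 5) of subunit 6A. Cox6b2 reached 3.60% ± 2.26 (SD, n = 5) and 2.57% ± 1.42 (SD, n = 5) of subunit 6B, and its highest share was 7.22% in PBS replicate 3. No share differed between the groups beyond the spread (exact two-sided permutation tests, adjusted p of 0.50 to 0.929 over 7 shares).

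**Figure D2:**
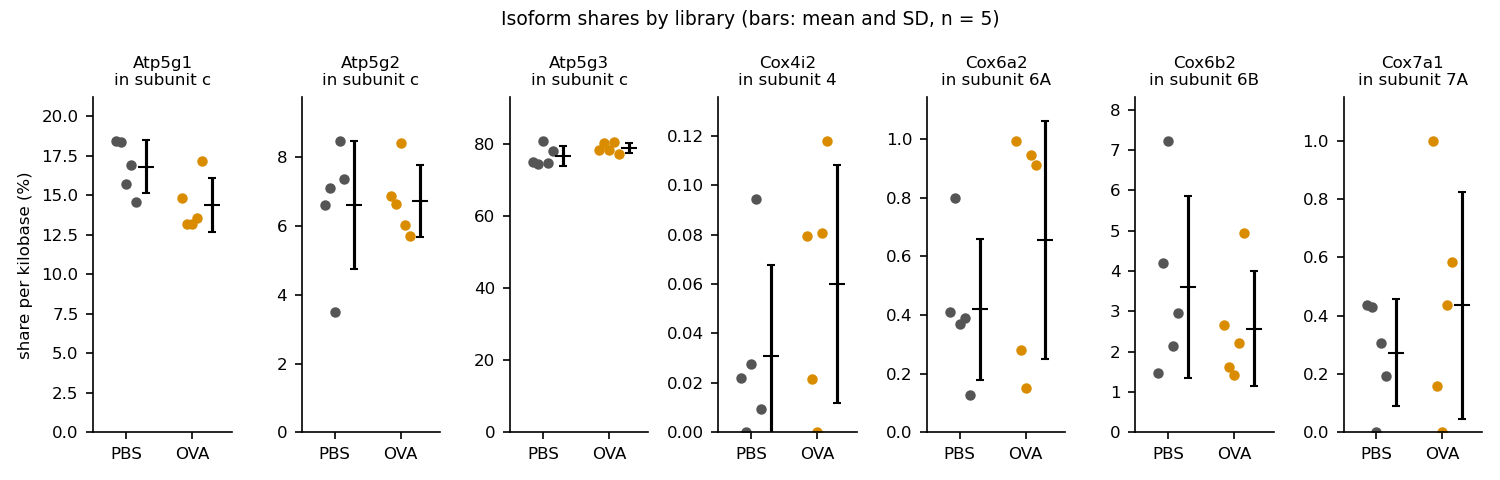
Share of each gene in the normalized counts per kilobase of its subunit (y axis, percent, from 0, with a scale of its own in each panel) for PBS (grey) and OVA (orange) libraries; points are libraries and bars are the mean and SD (n = 5). Atp5g3 takes 74.5% to 80.7% of subunit c in PBS, the tissue forms of complex IV take at most 7.22%, and the groups overlap in every panel.

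Levels between genes were compared per kilobase of exon over all 10 libraries. Cox4i1 was highest with 14015 normalized counts per kilobase, followed by Cox6a1 (7356), Cox8a (5089) and Cox7a2l (4696). The F1 genes lay between 2174 and 4629, the peripheral stalk genes between 1171 and 2867 and the small membrane subunits between 322 and 1956. The ring genes spanned a wide range, from Atp5g3 (1418) to Atp5g1 (287) and Atp5g2 (120). These levels depended on the length used. With the longest coding transcript in place of all exons, Atp5e went from 2684 to 11194 and Atp5l from 512 to 6067, while Cox4i1 stayed highest at 28396.

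**Figure D3:**
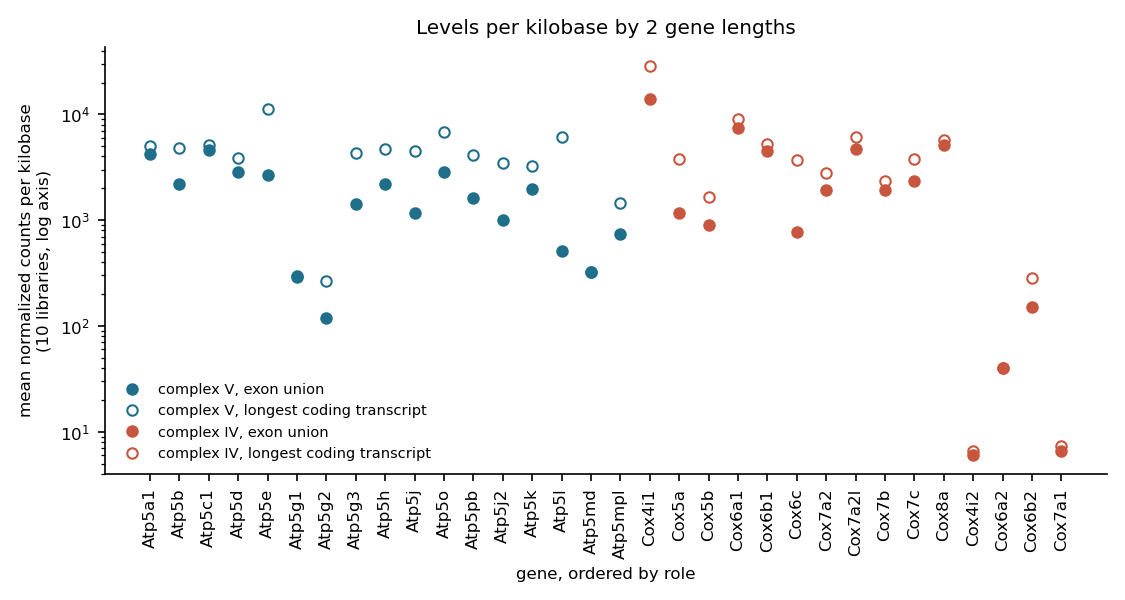
Mean normalized counts per kilobase over 10 libraries (y axis, log scale) for each gene (x axis, by role), from the exon union (filled) and from the longest coding transcript (open). Cox4i1 is highest with both lengths, Cox4i2 and Cox7a1 are lowest, and the order of the genes between them depends on the length.

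The 29 genes with means of 100 normalized counts or more shared a pattern over libraries. A PBS library was the highest of the 10 for 28 of them, where this held for 68.3% of all genes of this level, and Atp5a1 was the exception. PBS replicate 1 was highest for 5 complex V and 7 complex IV genes, and PBS replicate 3, the library with the fewest reads, for 8 and 4. Their longest coding transcripts had a median of 1410 bases for the 5 complex V genes led by PBS replicate 1 and of 667.5 bases for the 8 led by PBS replicate 3. For complex IV the medians were closer, with 765 bases for the 7 genes led by PBS replicate 1 and 652 for the 4 led by PBS replicate 3. At the low end, OVA replicates 7 and 9 were lowest for 8 and 9 of the 29 genes.

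PBS replicate 5 lay with the OVA libraries. The median deviation of complex V genes from their mean over all libraries was -0.13 on the log2 scale there, between -0.18 and -0.07 in the OVA libraries and between 0.02 and 0.27 in the other PBS libraries. The spread was larger in PBS than in OVA libraries for 24 of 29 genes, as for 77.5% of all genes of this level. Complex V genes together made 0.412% ± 0.0336 (SD, n = 5) of the reads in PBS and 0.388% ± 0.0327 (SD, n = 5) in OVA libraries, and complex IV genes 0.294% ± 0.0361 (SD, n = 5) and 0.279% ± 0.0147 (SD, n = 5). These sums overlapped between the groups.

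**Figure D4:**
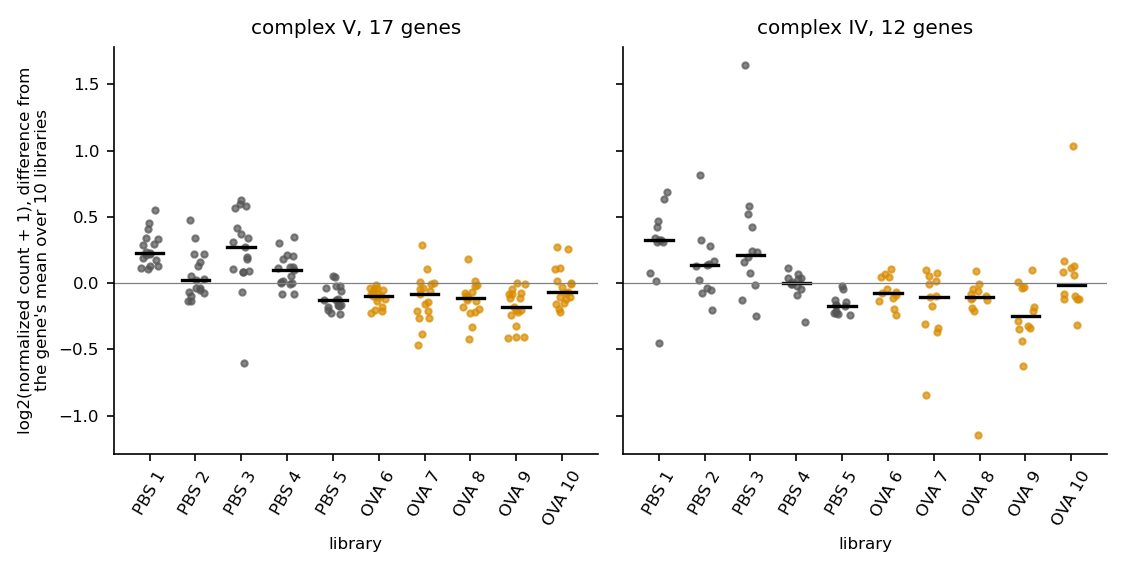
Log2(normalized count + 1) of each gene with a mean of at least 100, as the difference from its own mean over 10 libraries (y axis), by library (x axis, PBS grey, OVA orange), for 17 complex V and 12 complex IV genes; black bars are medians. The medians of PBS replicates 1 and 3 are the highest for complex V (0.23 and 0.27), and PBS replicate 5 lies with the OVA libraries.

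The erythroid and T cell marker sums varied between libraries within both groups. The erythroid marker sum was 6483, 16431, 14999, 3126 and 3230 in PBS replicates 1 to 5. It was 9418 and 10098 in OVA replicates 9 and 10 and at most 2424 in OVA replicates 6, 7 and 8. The T cell marker sum was highest in PBS replicate 1 (177580) and lowest in PBS replicate 3 (91952). Among fibroblast and pericyte markers, 4 genes whose names were placed with a probability under 0.9, Col1a1, Col1a2, Col3a1 and Pdgfrb, summed to 7.75 to 58.2 in PBS and 92.0 to 145.6 in OVA libraries. All 4 were higher in OVA mice at an unadjusted p under 0.05 and were chosen after their values were seen. The 2 genes of that list placed with more certainty, Notch3 (-0.29) and Kcnj8 (-0.23), summed to 16.2 to 94.6 and 16.5 to 38.6. The part of these cells in the subunit values was not tested. Without PBS replicate 1 the median log2 fold change was -0.15 for complex V and -0.08 for complex IV, without PBS replicate 3 it was -0.16 and -0.19, and without PBS replicate 5 it was -0.28 and -0.23. With PBS replicate 5 left out, 7 complex V and 3 complex IV genes had an unadjusted p under 0.05. The share of all genes at this p with a library left out is not given here, so that such counts have no background. Without PBS replicate 5, 0 subunit genes passed the adjusted threshold (lowest limma adjusted p = 0.169), while 135 of all genes did, against 1 with all libraries. With any other library left out, 2 or 3 complex V and 0 to 2 complex IV genes had an unadjusted p under 0.05.

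The rest of the respiratory chain gave estimates of the same size. Complex I, which takes electrons from NADH, had 35 of 36 genes below zero with a median log2 fold change of -0.18. Its lowest gene was Ndufs3 (-0.41, SE 0.16) and its highest Ndufa3 (0.16, SE 0.14). Complex II, which takes electrons from succinate, had 4 of 4 genes below zero with a median of -0.15, from Sdhd (-0.22, SE 0.14) to Sdha at -0.0012 (SE 0.13). Complex III, which feeds cytochrome c, had 9 of 9 genes below zero with a median of -0.22, from Cyc1 (-0.37, SE 0.20) to Uqcrfs1 (-0.01, SE 0.12). Cycs, cytochrome c itself, had an estimate of -0.22 (SE 0.23). In these lists 0 of 50 genes passed the adjusted threshold and 3 complex I genes, Ndufa2, Ndufc1 and Ndufs3, had an unadjusted p under 0.05, each lower in OVA mice. Of all genes with a mean of 1000 or more, 69.5% lay below zero and 5.78% were lower at this p. Values of these lists at the same total are not given here.

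Ndufa4, a subunit of complex IV outside the name rule, held 3589 ± 610 (SD, n = 5) normalized counts in PBS and 2999 ± 220 (SD, n = 5) in OVA mice (-0.24, SE 0.14). Its relative Ndufa4l2 was at 0 in every OVA library and at no more than 6.89 in PBS libraries. Of the 21 assembly factors of complex IV, 14 were tested, 9 of them below zero (median -0.11). They ran from Cox19 (-0.37, SE 0.15) to Cox11, a copper chaperone, with 23.7 ± 15.1 (SD, n = 5) and 39.0 ± 4.18 (SD, n = 5) normalized counts (1.00, SE 0.49). The Cox names in this list were placed by the model described below. Its earlier versions preferred 4 rows for Cox genes, so that these names are also less certain. The assembly factors of complex V had 4 of 4 genes below zero (median -0.25), from Tmem70 (-0.38, SE 0.18) to Atpaf2 (-0.10, SE 0.15). None of these genes passed the adjusted threshold in limma, and 2, Cox19 and Cox20, had an unadjusted p under 0.05, both lower in OVA mice.

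Regulators of nuclear genes for mitochondrial proteins showed no common direction, with 6 of 11 genes tested below zero and a median of -0.02. Tfb1m, a mitochondrial ribosomal RNA methyltransferase, was lowest at -0.15 (SE 0.22). Ppargc1a, a coactivator of mitochondrial biogenesis, was at 0 in every PBS library and between 0 and 8.14 normalized counts in OVA libraries. Glycolysis genes had 8 of 17 below zero and a median of 0.01. Hk2, an inducible hexokinase, was highest in that list with 70.0 ± 21.9 (SD, n = 5) in PBS and 136.7 ± 58.0 (SD, n = 5) in OVA mice (0.91, SE 0.32, limma adjusted p = 0.346), and Pfkm, the muscle form of phosphofructokinase, was lowest (-0.38, SE 0.27). In both lists 0 genes passed the adjusted threshold and 2, Ppargc1a and Hk2, had an unadjusted p under 0.05.

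The subunit genes are scattered over 17 chromosomes. Promoters are given because many genes of this kind share binding motifs of a few widely expressed factors. RefSeq promoter windows on GRCm38.p6, of 250 bases before and 50 after a start, matched 26 of 32 genes, 15 of complex V and 11 of complex IV. Motifs were searched on both strands in any window of a gene, and overlapping motifs were each counted. The ETS core CCGGAAG stood in 6 of 15 complex V and 3 of 11 complex IV genes and in 12.9% of 17492 protein-coding genes. The NRF1 motif stood in 6 and 1, against 7.17%, the YY1 motif AAGATGGC in 3 and 0, against 3.57%, and the SP1 motif GGGCGG in 6 and 5, against 49.2%. A match is a run of letters and not a measured binding site.

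The 3 genes with an unadjusted limma p under 0.05 in the authors' scaling were Atp5e, Atp5md and Atp5g1. They are shown by 120 bases upstream of their annotated starts, with motif letters in capitals. The windows are chr2:174464106-174464225, chr19:47090648-47090767 and chr11:96075671-96075790, all on the minus strand of GRCm38.
Atp5e: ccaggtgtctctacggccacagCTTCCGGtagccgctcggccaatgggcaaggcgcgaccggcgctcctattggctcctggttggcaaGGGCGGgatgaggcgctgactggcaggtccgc
Atp5md: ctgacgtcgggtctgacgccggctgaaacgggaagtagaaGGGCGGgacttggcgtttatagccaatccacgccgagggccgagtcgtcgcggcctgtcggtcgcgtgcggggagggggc
Atp5g1: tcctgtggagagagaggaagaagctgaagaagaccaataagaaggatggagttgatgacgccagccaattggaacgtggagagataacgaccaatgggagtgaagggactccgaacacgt
The Atp5e window holds 1 ETS core and 1 SP1 motif, the Atp5md window 1 SP1 motif, and the Atp5g1 window none of the 4 motifs. The ETS core counted for Atp5md lies in its promoter window outside these 120 bases.

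Some subunit genes have near-identical copies among which reads can be split. Of the 32 genes, 11 had at least 1 other annotated gene with a match of 95% or more over 200 or more bases, in nearly all cases a processed pseudogene. Atp5l had the most, with 9. Cox5b matched the gene Gm11273, annotated as protein coding, over 390 bases at 99.2% identity, and Atp5pb matched Gm12231 over 696 bases at 98.7%. Values of these 11 genes are uncertain to that extent, and Atp5e and Atp5md had no such copy.

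The row distances were taken from the rule, and the levels they select are a description. Read 3 rows above the name, 17 of 17 complex V genes had a mean of at least 100 normalized counts, against 15 of 17 with the names as listed. Read 5 rows above it, 11 of 15 complex IV genes had a mean of at least 500, and the 4 that did not were the tissue isoforms, against 6 of 15 as listed and 10 of 15 at 4 rows. Means of at least 100 did not single out 5 rows for complex IV, with 12 of 15 genes at 4, 5 and 9 rows alike. A hidden Markov model over the whole table gave the distance of 3 rows a probability of 0.999 for every Atp5 gene. For Cox genes it gave the distance of 5 rows between 0.598 for Cox8a and 0.993 for Cox4i1, and its first stage alone between 0.234 and 0.290. The names of complex IV genes are thus less certain than those of complex V genes.

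**Figure D5:**
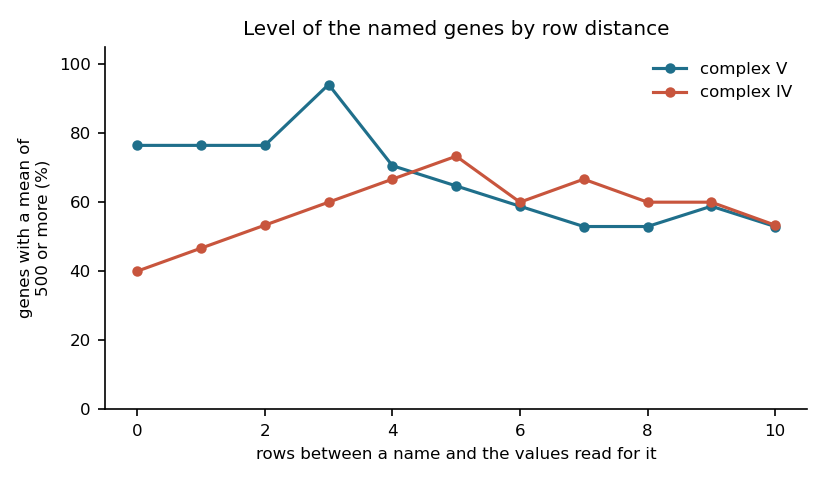
Percent of complex V (blue) and complex IV (red) genes with a mean of 500 or more normalized counts (y axis) when values are read from 0 to 10 rows above the name (x axis). The curves peak at 3 rows for complex V, with 16 of 17 genes, and at 5 rows for complex IV, with 11 of 15.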

How the data were processed

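Per the labels and the study's methods, the authors aligned reads to mouse Ensembl release 99 with STAR 2.6.1d and quantified genes in Partek Flow 9.0. The deposited values are a signal: gene counts divided by median-ratio size factors (normalized counts). A strand setting is not given in the sources used here. All 10 value columns were mapped to samples, and 0 were unused. Dividing by each library's smallest step gave whole reads for over 99.9% of values (within 0.1), of 6835696 to 29915782 reads per library.

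Names and values are out of step in the table. A hidden Markov model placed names against annotation and expression. On shifts simulated from the fitted model itself it placed 94.6% of rows exactly. This share does not measure its accuracy on the deposited values. Earlier versions of the model preferred 4 rows for Cox genes and the version kept was chosen after that, so that it is not independent support for 5 rows.

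The 20249 genes whose mean reached 1 normalized count were tested with limma 3.58.1 (trend, R 4.3.3) on log2(normalized count + 1), with Benjamini-Hochberg adjustment over all of them. Fold changes on this scale understate those of low genes. edgeR 4.0.16 and DESeq2 1.42.0 were run on the recovered reads as alternatives. In simulated data with 200 genes changed by a log2 of 1 among 20249, limma recovered 122 with 11 false calls. Exact two-sided permutation tests used 252 assignments of the libraries. Named were all subunit genes with a mean of at least 100, the tissue isoforms, and the highest and lowest gene of each other list tested (placement probability of at least 0.9). The members and lists were chosen with earlier results of these data known. Values of some genes of the marker lists are not reported here.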

Additional observations from a re-analysis of the deposited data

Results flagged for a closer look

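In 3 of 78 groups of 5 libraries (3.85%), 1 library lay far from the other 4 by Dixon's criterion (a gap to the nearest library of more than 0.71 of the range), where chance gives about 1 in 20. Atp5g1 held 1665.9 normalized counts in OVA replicate 10, and the next OVA library held 1194.9. Cox4i1 held 33252 in PBS replicate 1, and the next PBS library held 22435. Cox5a held 3622.4 in PBS replicate 3, the library with the fewest reads, and the next PBS library held 2449.0. Without the library that stood apart, the log2 fold change was -0.49 for Atp5g1, -0.03 for Cox4i1 and -0.02 for Cox5a.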

How the results depend on the processing

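No paired analysis was possible because the groups share no replicate numbers. No subunit gene passed the adjusted threshold under any alternative, and 639 of 670 fold changes kept their direction. The 670 include changes of pseudocount and minimum, which turned no direction, and settings that read another gene's values. The medians ranged over single libraries left out from -0.28 to -0.14 for complex V and from -0.23 to -0.08 for complex IV. Over all genes, the number past an adjusted p of 0.05 was 1 with limma, 0 with a pseudocount of 0.1, 0 after quantile normalization, 2 with edgeR, 167 with DESeq2, and 0 to 135 with single libraries left out, the 135 without PBS replicate 5 and 2 without OVA replicate 9. The causes were not tested.

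Directions turned at the same total for Atp5g2 (0.035), Atp5g3 (0.0058), Atp5pb (0.014) and Cox6c (0.036), and after quantile normalization for Atp5pb (0.026), Cox4i1 (0.038), Cox6c (0.0078) and Cox7a1 (-0.22). With the names as listed they turned for Atp5o (0.027), Cox4i1 (0.31), Cox4i2 (-0.25), Cox7a1 (-0.15), Cox7a2 (1.68) and Cox7c (0.98). With values 1 row nearer to the name they turned for Cox4i1 (0.62), Cox4i2 (-0.15), Cox6a1 (0.31), Cox6a2 (-0.25), Cox7a1 (-0.29) and Cox8a (1.68), and with values 1 row further for Cox4i2 (-0.17), Cox5a (0.62), Cox6a2 (-0.19), Cox6b1 (0.31), Cox7a1 (-0.21) and Cox7a2 (0.21), since these settings read another gene's values. With 1 library left out, the fold change ranged from -0.24 to 0.0008 for Atp5g2, -0.10 to 0.75 for Cox6a2, -0.13 to 0.019 for Cox6c and -0.23 to 0.69 for Cox7a1.

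The share of Atp5g1 differed by -3.11 to -2.01 percentage points with 1 library left out, and passed an unadjusted exact permutation p of 0.05 without PBS replicate 5 (-2.97) and without OVA replicate 10 (-3.11). That of Atp5g3 ranged from 1.78 to 3.34 and passed without PBS replicate 3 (3.34). That of Atp5g2 ranged from -0.65 to 0.59 and was -0.0098 with coding transcript lengths. With that length, levels per kilobase moved by more than 1 SD, pooled over both groups, for 26 of 32 genes. Depth limits Cox4i2 and Cox7a1 most, at 0 to 15 reads per library.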
